A study of Mus musculus with 7 samples.

Results

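Hdc, Hnmt, Hrh1, Hrh2, Slc22a3, Cma1, Cpa3 and Mcpt4 are the 8 genes described here, of 55487 genes counted in mouse ovary. They were selected on their function in the making, sensing and storage of histamine and on their TMM CPM in the study's groups, whose difference was thus already known, and were found by matching their symbols to Ensembl identifiers. All 8 had counts in every library and passed the filter on low counts that left 18779 genes for testing. The values below are therefore a description of these genes. Counts of calls are printed for them only beside the same counts over all genes, and nothing is read from them.

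RNA was sequenced from ovaries of C57BL/6J mice at diestrus on postnatal day 60, with 1 library per mouse. The 3 CNTR libraries came from female offspring of dams that received PBS while pregnant. The 4 PAMH F3 libraries came from the third generation of a line whose founding F0 dams received human recombinant AMH, anti-Müllerian hormone, daily (0.12 mg/kg) between E16.5 and E18.5 of gestation. First-generation PAMH females were bred with unrelated PAMH males of their own generation, second-generation females likewise with unrelated males, and no further AMH was given. The route of injection is intraperitoneal in the paper and subcutaneous in the sample labels. CNTR mice were of generation 1 and PAMH F3 mice of generation 3, so ancestral AMH and generation cannot be told apart.

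Histamine is made from the amino acid histidine in a single step by histidine decarboxylase, the product of Hdc. It acts on cells through G protein-coupled receptors, among them those encoded by Hrh1 and Hrh2, and inside cells it is inactivated by the methyltransferase encoded by Hnmt. Slc22a3 encodes an organic cation transporter that carries histamine across the cell membrane. Mast cells are tissue-resident immune cells that store histamine in granules together with proteases, and Cma1 and Mcpt4 encode granule chymases while Cpa3 encodes the granule carboxypeptidase. Because Hdc is used by mast cells and basophils but also by other cells, its level in a whole organ can be read beside theirs.

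The 250 bases upstream of the annotated start are printed for Hdc and for the 3 mast cell protease genes, since the comparison of Hdc with these genes is the question asked of the group. They were read from the RefSeq annotation of GRCm38.p6, on the strand of the gene, and capitals mark GATAA on either strand, the core of the motif read by GATA factors (written TTATC where it lies on the opposite strand). The windows are chr2:126618679-126618928 for Hdc, chr14:55944676-55944925 for Cma1, chr3:20242182-20242431 for Cpa3 and chr14:56062311-56062560 for Mcpt4, all on the minus strand.
Hdc: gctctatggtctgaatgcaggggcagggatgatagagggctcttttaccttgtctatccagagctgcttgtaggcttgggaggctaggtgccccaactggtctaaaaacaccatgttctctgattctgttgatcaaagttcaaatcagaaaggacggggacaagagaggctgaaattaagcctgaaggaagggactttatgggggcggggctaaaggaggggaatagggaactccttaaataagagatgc
Cma1: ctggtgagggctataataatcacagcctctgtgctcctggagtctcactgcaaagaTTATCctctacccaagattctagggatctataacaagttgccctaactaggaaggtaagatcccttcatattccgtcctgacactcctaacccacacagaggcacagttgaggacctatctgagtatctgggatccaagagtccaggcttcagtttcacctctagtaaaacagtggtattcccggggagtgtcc
Cpa3: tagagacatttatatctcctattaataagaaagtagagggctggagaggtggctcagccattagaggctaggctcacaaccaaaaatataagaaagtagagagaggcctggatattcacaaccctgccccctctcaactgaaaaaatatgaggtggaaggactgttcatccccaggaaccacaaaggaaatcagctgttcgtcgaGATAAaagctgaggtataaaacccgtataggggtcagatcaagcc
Mcpt4: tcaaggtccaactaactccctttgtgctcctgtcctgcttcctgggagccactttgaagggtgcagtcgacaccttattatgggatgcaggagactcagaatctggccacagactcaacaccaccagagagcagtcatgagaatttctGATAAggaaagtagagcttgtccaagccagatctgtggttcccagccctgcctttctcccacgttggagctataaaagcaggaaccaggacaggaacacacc
Of 32851 such windows upstream of mouse genes, 22.6% held GATAA on either strand. It occurred once in each of the 3 protease windows, starting 194 bases before the start in Cma1 on the opposite strand, 45 bases before it in Cpa3 and 102 bases before it in Mcpt4. The Hdc window did not hold these letters, and neither did those of Hnmt, Hrh2 and Slc22a3. The Hdc window is upstream of the RefSeq start but lies inside the gene as GENCODE M21 places it, from 126593667 to 126619299. The bases upstream of that GENCODE start were not searched. Hrh1 has 4 annotated windows, and 3 of them held GATAA. A second motif, the core of the TATA box, was searched on the strand of the gene as TATAAA. It was in 7.59% of all windows, and among the 8 genes it was found in Cpa3, starting 31 bases before the start, and in Mcpt4, starting 32 bases before it. In Cpa3 and Mcpt4 these matches did not overlap each other. These matches describe the letters of the windows and say nothing of whether a factor was bound.

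Levels were compared between genes on 1 scale, CPM per kilobase, which is edgeR's CPM (counts scaled to the size of the library and corrected by the TMM method) divided by the exonic length of the gene. Over the 7 libraries Hdc had the highest mean of the 8 genes, at 36.0 ± 10.1 CPM per kilobase (SD, n = 7). Hnmt followed at 14.8 ± 2.70 CPM per kilobase. The mast cell proteases lay well below them, with 2.5 ± 0.89 CPM per kilobase for Cma1, 1.79 ± 0.49 for Mcpt4 and 1.73 ± 0.87 for Cpa3. Slc22a3 was at 0.634 ± 0.285 CPM per kilobase, and the receptors were lowest, with 0.163 ± 0.034 for Hrh1 and 0.0660 ± 0.0306 for Hrh2. Between neighbours in this order, the libraries did not overlap from Hnmt to Cma1, from Slc22a3 to Hrh1 and from Hrh1 to Hrh2. The ranges of Hdc and Hnmt overlapped through the lowest Hdc library, and those of Cpa3 and Slc22a3 overlapped too, although within a library Hdc was above Hnmt, and Cpa3 above Slc22a3, in 7 of 7. Cma1 was above Mcpt4 in 6 of 7 libraries and Mcpt4 above Cpa3 in 4 of 7, so the order of the 3 proteases did not hold in every library. The precision of the rarest members was set by counting, since Hrh2 had between 5 and 23 counts in a library, Hrh1 between 18 and 31, and Hdc between 3673 and 11667.

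**Figure D1:**
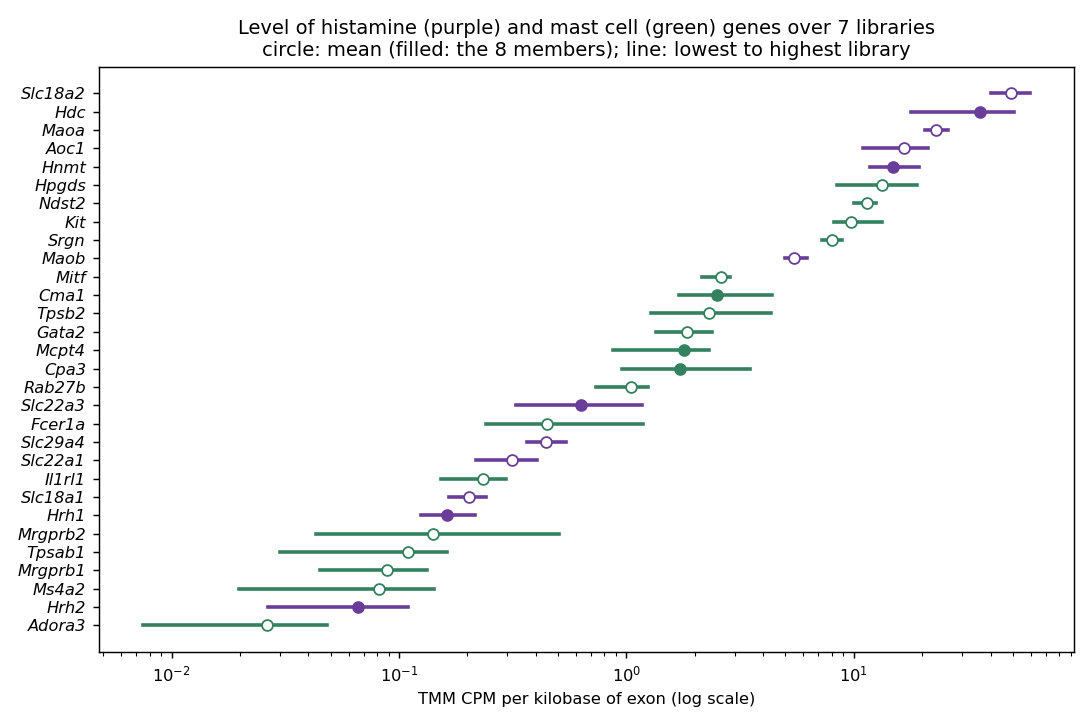
Mean level over the 7 libraries (circle) and the lowest to highest library (line) of histamine genes and mast cell genes with a count in every library, in TMM CPM per kilobase of exon on a log axis. Among the 8 genes described (filled circles), Hdc is highest at 36.0 CPM per kilobase and Hrh2 lowest at 0.0660, and the 3 proteases lie close together between 1.73 and 2.5.

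Hdc (ENSMUSG00000027360, mm10 chromosome 2 from 126593667 to 126619299, minus strand) encodes the enzyme that makes histamine. Its expression was 250, 247 and 114 CPM in CNTR replicates 1, 2 and 3 and 240.4, 241, 325 and 191 CPM in PAMH F3 replicates 1 to 4. The groups overlapped, with CNTR replicates 1 and 2 and PAMH F3 replicates 1 and 2 close to one another, PAMH F3 replicate 3 above them, PAMH F3 replicate 4 below them and CNTR replicate 3 lowest by a wide margin. The CNTR mean was 204 ± 77.9 CPM (SD, n = 3), and the PAMH F3 mean was 249.6 ± 55.8 CPM (SD, n = 4). The edgeR log2 fold change of Hdc, PAMH F3 over CNTR, was 0.32 with a standard error of 0.08 in the model with 2 surrogate variables, covariates that svaseq derives from the counts to absorb variation the groups do not account for. Without surrogate variables it was 0.29 with a standard error of 0.27. When CNTR replicate 3 was left out it was 0.13 with surrogate variables and 0.01 without them, and when CNTR replicate 1 was left out it was 0.57 with them. Without PAMH F3 replicate 3 it was 0.27 with surrogate variables and 0.14 without them. The size of the fold change therefore rested on single libraries, in CNTR and in PAMH F3.

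Hnmt (ENSMUSG00000026986, chromosome 2 from 24002910 to 24049394, minus strand), whose product inactivates histamine by methylation, showed almost the same mean in both groups. It was at 27.1, 20.8 and 29.7 CPM in the CNTR libraries and at 24.0, 26.4, 34.3 and 21.3 CPM in the PAMH F3 libraries. The lowest library was in CNTR and the highest in PAMH F3, and the ranges of the groups lay almost on top of each other. The log2 fold change was 0.02 with a standard error of 0.20, and leaving out single libraries moved it from -0.17 to 0.24. Hdc and Hnmt were both highest in PAMH F3 replicate 3, but in CNTR replicate 3, where Hdc was lowest, Hnmt was the highest of the CNTR libraries.

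The receptor genes were near the floor of detection. Hrh1 (ENSMUSG00000053004, chromosome 6 from 114397936 to 114483296, plus strand) encodes the H1 receptor, which couples to calcium signalling. Its CPM were 0.874, 0.750 and 0.959 in CNTR and 0.652, 0.723, 0.558 and 0.564 in PAMH F3, from 29, 25 and 31 counts and from 23, 24, 20 and 18 counts. Every PAMH F3 library lay below every CNTR library, with the narrowest gap between CNTR replicate 2 and PAMH F3 replicate 2, which were 25 and 24 counts. Hrh1 was the only 1 of the 8 genes whose groups did not overlap, and across all 18779 genes tested 4.25% had groups that did not overlap, 2.40% with PAMH F3 lower. The log2 fold change of Hrh1 was -0.49 with a standard error of 0.25, and it stayed between -0.59 and -0.39 when single libraries were left out.

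Hrh2 (ENSMUSG00000034987, chromosome 13 from 54192129 to 54236180, plus strand) encodes the H2 receptor, which couples to cyclic AMP. Its CPM were 0.422, 0.300 and 0.248 in CNTR and 0.652, 0.602, 0.363 and 0.157 in PAMH F3. The PAMH F3 libraries spanned the whole CNTR range, and both the highest and the lowest library were among them. The log2 fold change of 0.35 had a standard error of 0.48, larger than the value itself. It was 0.12 without PAMH F3 replicate 1 or 2, 0.71 without CNTR replicate 1, and 0.56 and 0.55 without PAMH F3 replicates 3 and 4. An antisense gene, Gm16578, overlaps Hrh2 and had 0 counts in all libraries. The 2 receptor genes therefore had fold changes of opposite sign, each from few counts.

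Slc22a3 (ENSMUSG00000023828, chromosome 17 from 12418960 to 12507704, minus strand), the transporter gene, was at 5.27, 2.22 and 1.92 CPM in CNTR and at 2.81, 2.59, 3.74 and 1.47 CPM in PAMH F3. CNTR replicate 1 was the highest of the 7 libraries and the other CNTR libraries were lower than 3 of the 4 PAMH F3 libraries. The log2 fold change of -0.37 (standard error 0.23) accordingly turned to 0.36 when CNTR replicate 1 was left out, and it was -0.55 without PAMH F3 replicate 3. Plg overlaps Slc22a3 on the opposite strand, and 8.27% of the 50-base windows of Slc22a3, matched on either strand, also occur in Plg. Plg had between 0 and 2 counts in a library.

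**Figure D2:**
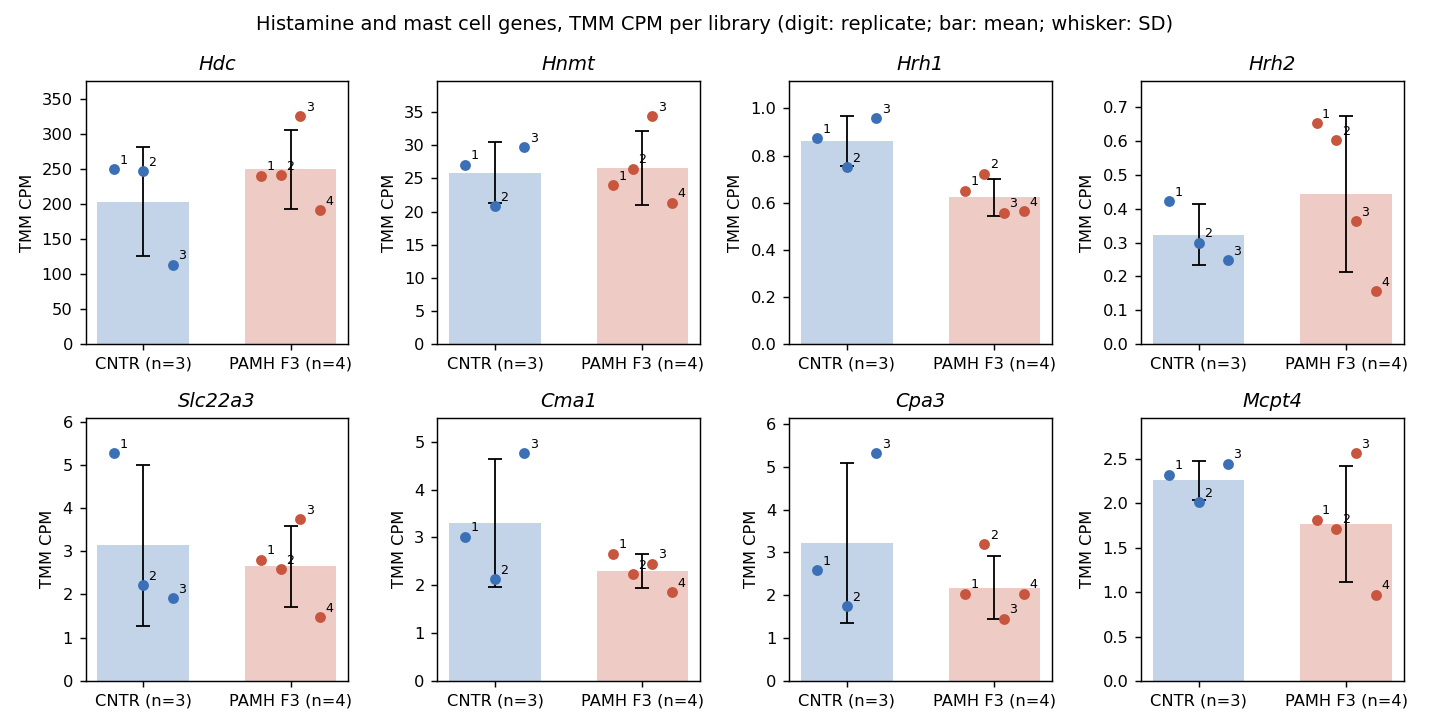
TMM CPM of the 8 genes in each library (points, numbered by replicate), with the group mean (bar) and SD (whisker), for 3 CNTR and 4 PAMH F3 libraries; each panel has its own axis from 0. Only in Hrh1 do all PAMH F3 points lie below all CNTR points, and CNTR replicate 3 is lowest for Hdc while it is highest for Cma1 and Cpa3.

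The mast cell protease genes had lower means in PAMH F3 than in CNTR, with groups that overlapped in all 3 genes. Cma1 (ENSMUSG00000022225, chromosome 14 from 55941451 to 55944675, minus strand) was at 3.01, 2.13 and 4.77 CPM in CNTR and at 2.66, 2.23, 2.45 and 1.85 CPM in PAMH F3. CNTR replicate 3 was the highest library, and CNTR replicate 2 fell among the PAMH F3 libraries. Cpa3 (ENSMUSG00000001865, chromosome 3 from 20215620 to 20242181, minus strand) was at 2.59, 1.74 and 5.32 CPM in CNTR and at 2.04, 3.19, 1.45 and 2.04 CPM in PAMH F3. Here too CNTR replicate 3 stood above the rest, and the other CNTR libraries fell inside the PAMH F3 range. Mcpt4 (ENSMUSG00000061068, chromosome 14 from 56059629 to 56062313, minus strand) was at 2.32, 2.01 and 2.44 CPM in CNTR and at 1.81, 1.72, 2.57 and 0.972 CPM in PAMH F3. Mcpt4 differed from the other proteases in that PAMH F3 replicate 3 was its highest library and CNTR replicate 3 was not set apart.

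The log2 fold changes were -0.49 for Cma1 (standard error 0.27), -0.46 for Cpa3 (standard error 0.34) and -0.37 for Mcpt4 (standard error 0.31). Without CNTR replicate 3 they were -0.14, -0.05 and -0.12, and without PAMH F3 replicate 4 they were -0.27, -0.22 and -0.15. Leaving out some other libraries moved them away from 0, to -0.82 for Cpa3 without PAMH F3 replicate 2 and to -0.61 for Mcpt4 without PAMH F3 replicate 3. Other omissions moved them less far towards 0, to -0.36 for Cpa3 without PAMH F3 replicate 3 and to -0.32 for Mcpt4 without CNTR replicate 1. In bulk tissue, fewer mast cells and less of these RNAs per mast cell cannot be told apart. Cma1 and Mcpt4 share some sequence with relatives, with 5.38% of the 50-base windows of Cma1 also found in Gm48934 and 5.48% of those of Mcpt4 in Cma2 or Mcpt9, while 0 of the windows of Cpa3 were shared.

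**Figure D3:**
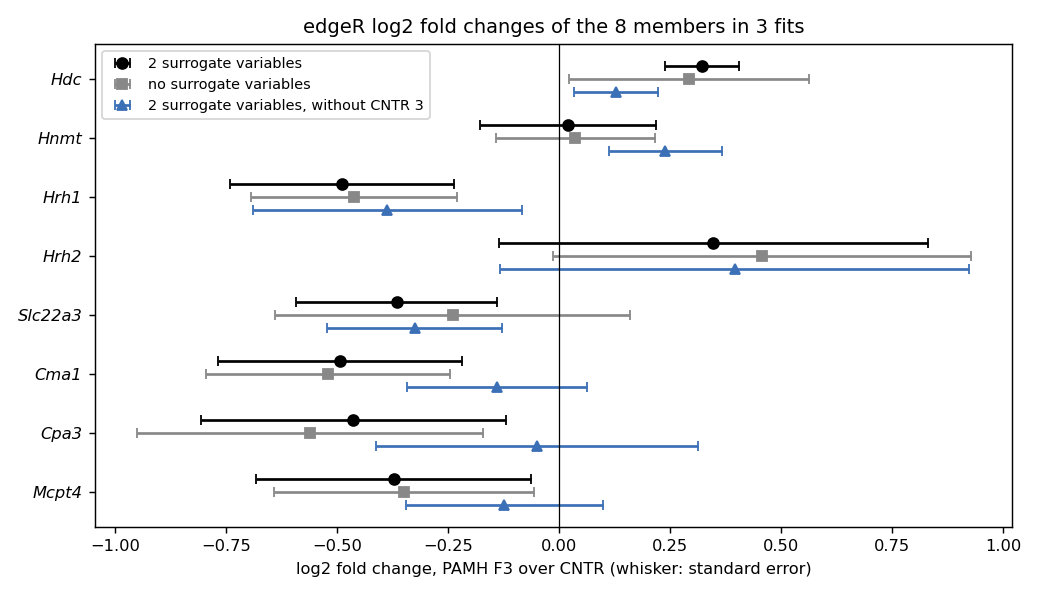
edgeR log2 fold changes of the 8 genes, PAMH F3 over CNTR, with standard errors (whiskers), with 2 surrogate variables, without surrogate variables, and with 2 surrogate variables after leaving out CNTR replicate 3. Hdc is at 0.32 and the 3 proteases between -0.49 and -0.37 with all libraries, and all 4 move towards 0 without CNTR replicate 3.

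The group means of Hdc and of the protease genes thus differed in opposite directions. With 2 surrogate variables, of the 7 libraries, leaving out CNTR replicate 3 brought each of these fold changes closest to 0. Without surrogate variables this held for Hdc, Cma1 and Cpa3. Mcpt4 was then closest to 0 without PAMH F3 replicate 4, at -0.15, and was at -0.29 without CNTR replicate 3. Of the 8 genes, 3 had a positive and 5 a negative log2 fold change, with a median of -0.37 against 0.005 over all genes tested. At an adjusted p of at most 0.05, edgeR's quasi-likelihood test called 0 of the 8 genes and 0 of all 18779 (0%), where the smallest adjusted p of any gene was 0.111. Among the 8 genes, 1 had an unadjusted p under 0.05 (Hdc), as did 7.64% of all genes. The Wald test of DESeq2 with these surrogate variables called 0 of the 5 genes for which it gave an adjusted p and 107 of all genes (0.57%), and it gave none for Hrh1, Hrh2 and Mcpt4.

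Whether Hdc followed the mast cell genes was read from library to library, and no such relation was shown with the 3 proteases. In CPM per kilobase, Hdc was 5.96, 7.87 and 1.76 times the sum of Cma1, Cpa3 and Mcpt4 in CNTR replicates 1, 2 and 3 and 6.94, 6.63, 9.22 and 7.64 times that sum in PAMH F3 replicates 1 to 4. CNTR replicate 3, with the lowest Hdc and the highest protease sum, stood apart, CNTR replicate 1 was somewhat below the lowest PAMH F3 library, and CNTR replicate 2 lay among the PAMH F3 libraries. The Pearson r of Hdc with the mean of the 3 protease genes, on log2 CPM over the 7 libraries, was -0.60 (exact permutation test, two-sided p = 0.170, adjusted p = 0.285 over 8 relations), and Spearman's rho was -0.14 (exact permutation p = 0.783, adjusted p = 0.894). After removal of the 2 libraries farthest from the median of the protease mean, CNTR replicate 3 and PAMH F3 replicate 4, r was -0.23, and after subtraction of the group means it was -0.50. Without CNTR replicate 3 alone, r was 0.51 (exact permutation p = 0.279), so the sign of the relation rested on that library.

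The proteases differed among themselves in this respect. The r of Hdc was -0.83 with Cpa3 (exact permutation p = 0.0296, adjusted p = 0.237), -0.64 with Cma1 (adjusted p = 0.285) and 0.10 with Mcpt4 (exact permutation adjusted p = 0.908). Without CNTR replicate 3 these became -0.42, 0.51 and 0.90. With the other genes of the histamine pathway, r of Hdc was 0.06 for Hnmt, -0.58 for Hrh1, 0.47 for Hrh2 and 0.60 for Slc22a3, and 0 of the 8 relations had an adjusted p under 0.05. Among the mast cell genes themselves, Cma1 and Cpa3 had an r of 0.74 (exact permutation adjusted p = 0.158 over 10 relations), which was 0.15 without CNTR replicate 3. Cpa3 and Mcpt4 had an r of 0.16 (exact permutation adjusted p = 0.707).

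**Figure D4:**
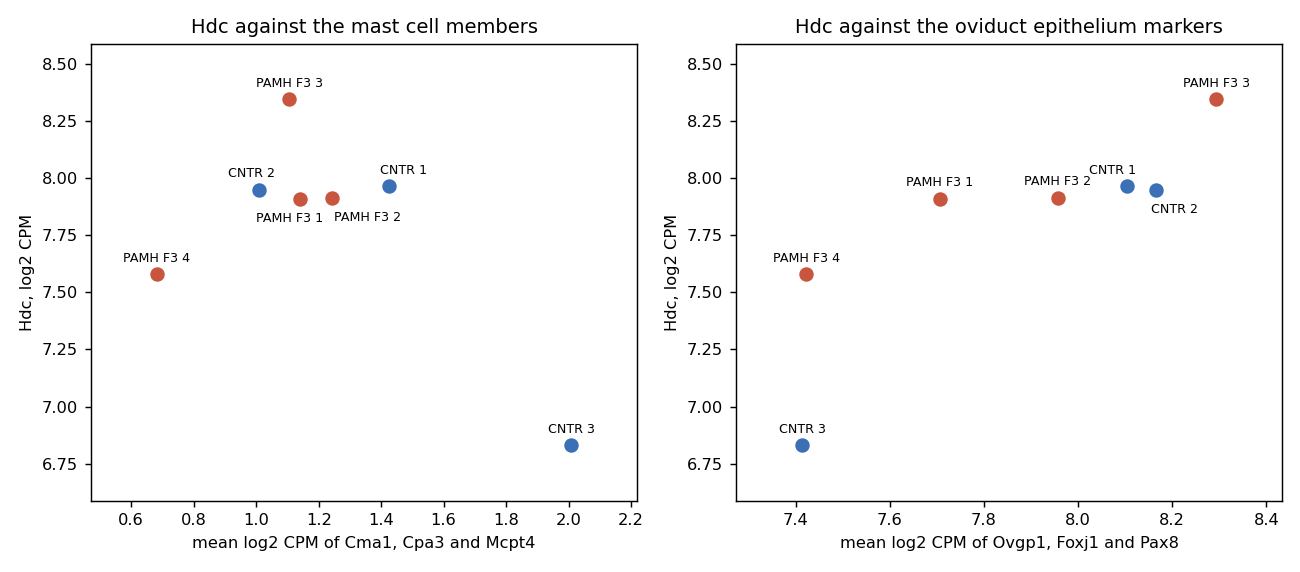
Hdc in log2 CPM (vertical axes) against the mean log2 CPM of Cma1, Cpa3 and Mcpt4 (left) and of the oviduct epithelium markers Ovgp1, Foxj1 and Pax8 (right), 1 point per library, blue for CNTR and red for PAMH F3. On the left CNTR replicate 3 lies alone at the lower right and r is -0.60, and on the right the libraries rise together with r at 0.83.

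The genes most like Hdc in log2 CPM over the 7 libraries, among 15619 genes with a mean of at least 1 CPM, were Slc15a1 (r = 0.997), Ly6f (0.991), Atp10b (0.989), Fut9 (0.988), Klf5 (0.988), Plekhg6 (0.986), E230016K23Rik (0.984), Agpat4 (0.983), Gas2l2 (0.981) and Lrrc23 (0.981). Slc15a1 encodes a peptide transporter of absorptive epithelia, Klf5 an epithelial transcription factor and Fut9 a fucosyltransferase. All 10 were highest in PAMH F3 replicate 3 and lowest in CNTR replicate 3, as Hdc was, and 235 genes had an r with Hdc of at least 0.9. Slc15a1 ranged from 6.65 to 27.1 CPM and Fut9 from 4.73 to 24.5 CPM. For the mean of the 3 proteases, 12 genes reached an r of 0.9, and the 5 most alike were Pcdhb15 (r = 0.983), Bcl2 (0.963), Adgra1 (0.948), Tnfaip8l2 (0.939) and Prdx1 (0.938). These 5 were highest in CNTR replicate 3 and lowest in PAMH F3 replicate 4. The likeness is a description over 7 libraries that also share depth and tissue composition.

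Among 12 lists of cell type markers, the list that moved most closely with Hdc was that of oviduct epithelium, Ovgp1, Foxj1 and Pax8. All 3 markers were detected in every library, although the libraries are labelled as ovary. Their summed level was 5213, 3989 and 2929 CPM in CNTR and 4035, 4515, 6320 and 2502 CPM in PAMH F3, nearly all of it from Ovgp1, the oviductal glycoprotein gene. The order of the libraries in Hdc was close to their order in these markers, with an r of 0.83 between Hdc and the mean log2 CPM of the list (exact permutation p = 0.000397, adjusted p = 0.0369 over 93 relations). Spearman's rho was 0.96 (exact permutation p = 0.00278, adjusted p = 0.129). The 8 genes and the lists were chosen with earlier results of these data known, so these p values are a description. The r was 0.70 without the 2 libraries farthest from the median, 0.87 without CNTR replicate 3 and 0.94 after subtraction of the group means. Hdc in CPM was between 3.88% and 7.64% of the summed markers. The part of the oviduct markers in the Hdc values was not tested. The single markers of the list had an r with Hdc of 0.90 for Pax8, 0.78 for Ovgp1 and 0.40 for Foxj1.

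With the whole mast cell marker list of 8 genes, r of Hdc was -0.72 (exact permutation adjusted p = 0.677) and 0.36 without CNTR replicate 3. A negative r was not particular to this list. It was -0.77 with the granulosa markers (exact permutation adjusted p = 0.489) and -0.72 with the luteal markers (exact permutation adjusted p = 0.549). Without CNTR replicate 3 the granulosa and luteal values were -0.42 and -0.11. All 8 mast cell markers were detected in every library, and 6 of the 8 were highest in CNTR replicate 3. The sum of the list, mostly Kit, which oocytes and other ovarian cells also express, was 88.1 to 117 CPM in CNTR and 80.4 to 128 CPM in PAMH F3. The basophil markers Mcpt8, Prss34, Cd200r3 and Il4 summed to between 0.251 and 0.530 CPM, with at most 12 counts for any of them, and their mean had an r of -0.25 with Hdc (exact permutation adjusted p = 0.870).

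No further relation of the members with a marker list had an adjusted p of at most 0.05 over the 93 relations. Hrh1 had an r of 0.87 with the mast cell markers (exact permutation p = 0.00119, adjusted p = 0.0554) and a rho of 0.93 (exact permutation adjusted p = 0.209), with an r of 0.89 without CNTR replicate 3 and 0.75 after subtraction of the group means. Slc22a3 had an r of 0.92 with the ovarian surface epithelium markers (exact permutation p = 0.00496, adjusted p = 0.154) and of 0.86 with the adipocyte markers (exact permutation adjusted p = 0.355). The adipocyte sum was 572, 308 and 181 CPM in CNTR and 157, 328, 407 and 74.2 CPM in PAMH F3, so that CNTR replicate 1, highest in Slc22a3, was also highest in fat markers, and PAMH F3 replicate 4 was lowest in both. CNTR replicate 3, lowest in Hdc, had the highest sums of the granulosa markers (2718 CPM), the luteal markers (7833 CPM) and the theca markers (428 CPM). Single genes weighed heavily there, since Inha gave 2130 CPM of the granulosa sum and Cyp17a1 the whole theca sum. CNTR replicate 3 was highest in 3 of the 6 granulosa, 3 of the 5 luteal and 1 of the 2 theca markers. By mean log2 CPM of the theca list CNTR replicate 2 was higher, at 2.71 against 2.34. The part of tissue composition in these marker differences and in the values of the 8 genes was not tested. The markers of granulosa cells, luteal cells and oocytes were detected in every library, and of the theca markers Insl3 had between 0 and 5 counts.

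**Figure D5:**
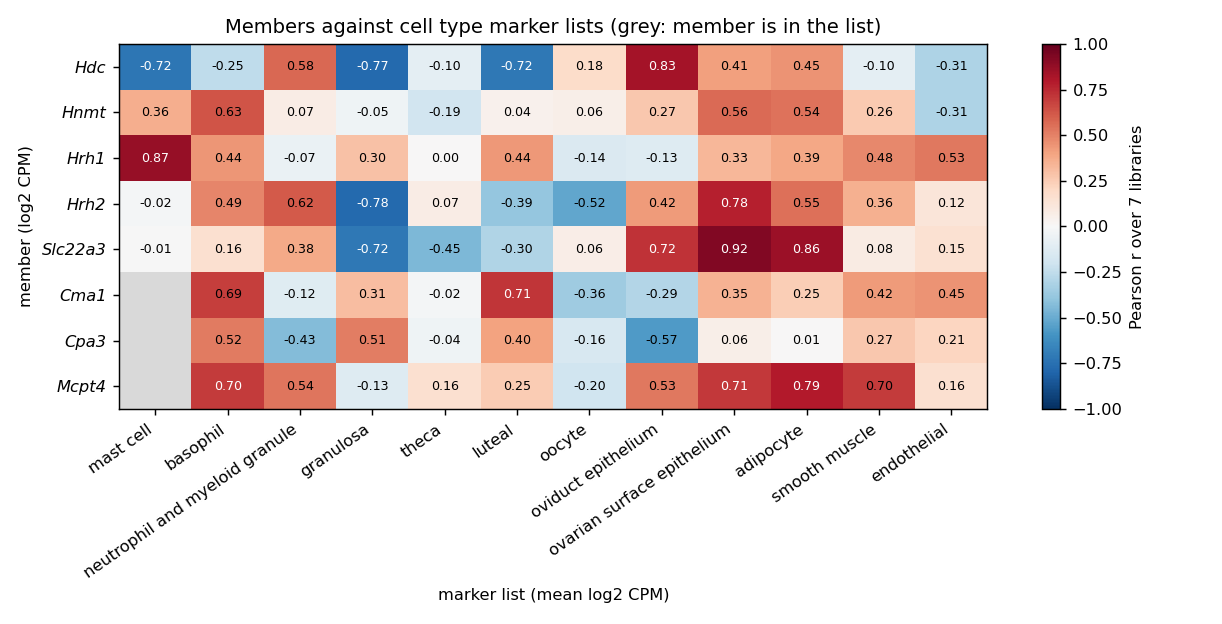
Pearson r over 7 libraries between each of the 8 genes (rows, log2 CPM) and the mean log2 CPM of 12 marker lists (columns), coloured from -1 (blue) to 1 (red); grey cells are genes that belong to the list. Hdc is at 0.83 with oviduct epithelium and at -0.72 with mast cell markers, whereas Hrh1 is at 0.87 with mast cell markers.

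Of 10 further genes of the histamine pathway, 7 passed the filter on low counts, and edgeR called 0 of them at an adjusted p of at most 0.05, with 0 at an unadjusted p under 0.05 and 0 by DESeq2. Their median log2 fold change was 0.01, against 0.005 over all genes tested. Slc18a2, which encodes the vesicular monoamine transporter that loads histamine into granules, had a higher mean than Hdc per kilobase, at 49.1 ± 7.03 CPM per kilobase (SD, n = 7). Its CPM were 312, 226 and 250 in CNTR and 209.6, 254, 298 and 247 in PAMH F3, so CNTR replicate 3 was not low in it. Genes of further enzymes that break down amines were also well above the proteases, with Maoa at 23.1 ± 2.09, Aoc1, the diamine oxidase gene, at 16.6 ± 3.90 and Maob at 5.49 ± 0.51 CPM per kilobase (SD, n = 7). Aoc1, whose product degrades histamine outside cells, had groups that overlapped, from 42.0 to 60.2 CPM in CNTR and from 35.6 to 69.0 CPM in PAMH F3. The receptor genes Hrh3 and Hrh4 had at most 3 and 2 counts in a library.

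Of 20 further mast cell genes, 11 passed the filter. edgeR called 0 of them, DESeq2 called 0, and 1 had an unadjusted p under 0.05 in edgeR's test, Mitf, named after its value was seen, at 0.24 ± 0.08 on the log2 scale (PAMH F3 over CNTR, ± standard error) and an adjusted p of 0.599 in edgeR. The median log2 fold change of the 11 was 0.02, with 6 positive and 5 negative. The 4 with the highest level per kilobase are also expressed outside mast cells, and were the prostaglandin D synthase gene Hpgds at 13.3 ± 3.79, the heparan sulfate sulfotransferase gene Ndst2 at 11.5 ± 0.94, the stem cell factor receptor gene Kit at 9.73 ± 1.75 and the granule proteoglycan gene Srgn at 8.0 ± 0.56 CPM per kilobase (SD, n = 7). Their groups overlapped, and none of them was highest in CNTR replicate 3. Mcpt1, a protease of mucosal mast cells, was at 0 in every library, which with 3 counts as the limit allows up to 0.0933 CPM in the shallowest library. By contrast the tryptase gene Tpsb2 and the IgE receptor gene Fcer1a were highest in CNTR replicate 3, as Cma1 and Cpa3 were. Both were named after their values were seen. Their log2 fold changes were among the 5 negative ones, at -0.60 (standard error 0.28) for Tpsb2 and -0.70 (standard error 0.41) for Fcer1a. Of the 20 genes, 6 were highest in CNTR replicate 3 and 1, Gata2, was lowest there. Tpsb2 was at 3.53, 3.93 and 6.90 CPM in CNTR and at 3.00, 3.55, 2.82 and 2.04 CPM in PAMH F3, and Fcer1a at 0.392, 0.240 and 1.18 CPM in CNTR and at 0.425, 0.241, 0.307 and 0.345 CPM in PAMH F3. The groups overlapped in Tpsb2 only through CNTR replicate 1, and in Fcer1a through CNTR replicates 1 and 2. Among the further mast cell genes with a mean of at least 1 CPM, r with Hdc was 0.82 for Gata2 and 0.80 for Hpgds. It was -0.53 for Il1rl1, -0.62 for Tpsb2 and -0.70 for Ndst2, and between -0.19 and 0.14 for Kit, Srgn, Rab27b and Mitf. Gata2, Il1rl1 and Rab27b were also named after their values were seen, and these r values were not tested.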

How the data were processed

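Ovarian poly(A) RNA of 3 CNTR and 4 PAMH F3 mice was sequenced as stranded libraries. Per the labels and the paper's methods, the authors mapped reads to mm10 with STAR 2.5.3a and counted uniquely aligned reads per Ensembl gene with HTSeq 0.6.1p1. The deposited values are raw counts per gene. Summary lines, 45.8% to 47.5% of a library's alignments and mostly those that were not unique, were left out, so genes with near-identical copies are counted low. The total of gene counts in a library was 32158174 to 35485021, and limits from counts cover counting error only. Of the identifiers, 55394 matched GENCODE M21, which gave symbols, positions and exonic lengths.

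PAMH F3 was compared with CNTR in edgeR 4.0.16 under R 4.3.3 (TMM over all genes, filterByExpr with a minimum count of 10, quasi-likelihood F test, Benjamini-Hochberg, threshold 0.05) with 2 surrogate variables from svaseq in sva 3.50.0, which left 3 residual degrees of freedom. The paper also put sva's unwanted variation in its model. log2 CPM used a prior count of 2, and correlations were tested over the 5040 orders of the 7 libraries (two-sided). P values of edgeR and DESeq2 set the group difference against the spread between these mice, less what the surrogate variables absorb where fitted. Permutation p values give the share of orders with a correlation at least as large in size.

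The 8 genes and all lists were chosen with earlier results of these data known. Genes named besides the 8 are, of the further histamine and mast cell genes, those called, those at 0 in every library and the 4 highest per kilobase, and the 10 genes most like Hdc and 5 most like the protease mean, with exceptions stated. Alternatives changed the number of surrogate variables, the tool (DESeq2 1.42.0), the size factors, the filter, robust fitting, the prior count, a replicate block and the libraries, and leaving out libraries without surrogate variables was added after seeing the data. The labels give no batch. DNA methylation was not analysed here.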

Additional observations from a re-analysis of the deposited data

How the results depend on the processing

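Across all genes tested, the count called was 0 in edgeR with 2 surrogate variables, 107 and 6 in DESeq2 with and without them, and 8 with no filter on low counts. It ran from 0 to 39 when single libraries were left out, the highest values being 39 (without CNTR replicate 1) and 37 (PAMH F3 replicate 1), and, without surrogate variables (chosen after seeing the data), from 0 to 2. The cause of these shifts was not tested. Of the further histamine genes and mast cell genes, 0 were called under each of the 17 other settings and the 7 added after seeing the data. The number of the 8 genes whose groups did not overlap was 1 to 2 when single libraries were left out, Cma1 joining without CNTR replicate 2 and Mcpt4 without PAMH F3 replicate 3, where 9.81% and 9.06% of all genes tested did not overlap. Over the 7 libraries left out, this share of all genes ran from 6.09% to 15.5%, against 4.25% with all libraries.

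The log2 fold changes of Hdc, Hrh1, Hrh2, Cma1, Cpa3 and Mcpt4 kept their sign under the settings that could be computed (17, and 16 for Hrh2, which the filter of 10 counts in every library removed). In the added ones Cpa3 reached 0.01 without CNTR replicate 3. Hnmt changed sign in 2 and Slc22a3 in 2, at 0.36 without CNTR replicate 1, with or without surrogate variables, and at 0.08 in the replicate block. The r of Hdc with the protease mean ran from -0.90 to 0.51 when single libraries were left out, with the sign reversed at 0.51 without CNTR replicate 3, and from -0.64 to -0.56 under other scalings.

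No pairing of the samples by replicate number was shown. Same-numbered libraries had correlations of deviations of 0.096, 0.097 and -0.248, and differently numbered ones of -0.235 to 0.277. So few values cannot exclude a pairing. The replicate block was fitted without surrogate variables and gave 0 genes called and 447 with an unadjusted p under 0.05, against 741 in the fit with neither. In the block fit Hdc was at 0.46 and Cma1, Cpa3 and Mcpt4 at -0.37, -0.45 and -0.17. Receptor genes at 5 to 31 counts were limited by depth.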

Other observations

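For each of 53 values with 4 PAMH F3 libraries, a library far from the others was looked for by the ratio of its gap to the range of the group, and 0 values passed Dixon's critical value for 4 samples, although chance alone passes about 1 in 20. The CNTR libraries, CNTR replicate 3 among them, were not covered by this search.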
